A study of Mus musculus with 5 samples.

Results

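NF2_Ntrk2.Necab2 is 1 of the 12 neuron types in the annotation deposited with these cells of the mouse dorsal root ganglion (DRG), the knot of sensory nerve cell bodies beside the spinal cord. Its cells were taken by that annotation alone, and they numbered 58 of the 3352 cells and of the 3047 neurons. All of them came from untreated wild type C57BL/6 mice aged 18 weeks, 3 males and 2 females, and no other genotype, agent or time was part of the study. The lumbar ganglia were dissociated with collagenase P and trypsin, cleared of debris on a Percoll gradient and run on the Chromium droplet system with its 3′ chemistry. Counts are of UMIs, random tags that let copies of the same transcript be counted once. Since there is 1 condition, every comparison is between cell types of the same animals. The cell names carry 5 library identifiers, numbered 1 to 5 here in the order of their text, and each was taken as 1 mouse because the labels list 5 samples. No label ties a library to a sample or a sex. The type written NF_Ca1b1 in the annotation is called NF_Calb1 here.

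A-delta touch neurons are thinly myelinated afferents that wrap hair follicles with lanceolate endings and fire at the lightest deflection of a hair. They are known for TrkB, the BDNF receptor encoded by Ntrk2, for the T-type calcium channel Cav3.2 encoded by Cacna1h, and for Piezo2, the channel that opens when the membrane is stretched. Necab2 encodes a neuronal calcium-binding protein of the EF-hand family. NF_Calb1 and NF_Pvalb are the other neurofilament types of the annotation, the latter carrying the proprioceptor marker parvalbumin, and Th neurons are the unmyelinated touch afferents.

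In the GENCODE vM21 annotation of GRCm38, Ntrk2 lies on the plus strand of chromosome 13 from 58806569 to 59133970, and Necab2 on the plus strand of chromosome 8 from 119446719 to 119472640. Because these 2 genes give the type its name, the RefSeq promoter window of each is printed, from 250 bases before to 50 bases after the start of the gene on the plus strand of GRCm38.p6, read 5′ to 3′.
Ntrk2, chr13:58806319-58806618: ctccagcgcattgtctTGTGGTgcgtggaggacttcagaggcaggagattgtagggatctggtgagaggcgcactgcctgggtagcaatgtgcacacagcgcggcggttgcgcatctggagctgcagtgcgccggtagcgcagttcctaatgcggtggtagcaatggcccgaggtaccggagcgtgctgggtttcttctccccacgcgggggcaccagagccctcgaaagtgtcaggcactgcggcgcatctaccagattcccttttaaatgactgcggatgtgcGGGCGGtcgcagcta
Necab2, chr8:119446469-119446768: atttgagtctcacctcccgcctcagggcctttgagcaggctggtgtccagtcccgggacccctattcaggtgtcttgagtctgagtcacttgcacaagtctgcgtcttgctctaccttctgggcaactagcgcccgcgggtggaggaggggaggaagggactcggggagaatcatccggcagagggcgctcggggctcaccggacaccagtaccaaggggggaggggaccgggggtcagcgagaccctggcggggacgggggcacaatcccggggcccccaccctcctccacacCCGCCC
Capitals mark the motifs found among 6 searched on both strands. The search used GGGCGG as the letters of an Sp1 site and CCGGAA as those of an ETS site. For RUNX factors it used TGTGGT and for the E-box it used CACGTG. The cyclic AMP response element was searched as TGACGTCA and the TATA box as TATAAA. The Ntrk2 window held TGTGGT at -234 and GGGCGG at 36 from the start, and the Necab2 window held CCGCCC, the reverse complement of GGGCGG, at 45. Of 32851 RefSeq promoter windows of this length, 35.7% held the Sp1 letters on either strand and 16.8% the RUNX letters. Guanine and cytosine made up 61.3% of the Ntrk2 window and 66.7% of the Necab2 window.

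The type was rare in every library. It had 3 cells in library 1, 6 in library 2, 5 in library 3, 17 in library 4 and 27 in library 5, which was 1.83, 1.11, 1.05, 2.11 and 1.97% of the cells. The exact Clopper-Pearson 95% intervals ran from 0.379 to 5.25% in library 1 and from 1.30 to 2.85% in library 5, and the intervals of all 5 libraries overlapped. The 58 cells held 5726247 UMIs, with 279016 in library 1 and between 615685 and 2390849 in the others. A cell held between 35401 and 205925 UMIs with a median of 96530.5, and the median cell showed 7981.5 genes. The cell of 205925 UMIs was in library 1, so most of the 279016 UMIs there, and of its levels, came from 1 cell. Mitochondrial rows took over 10% of the UMIs in 7 of the 58 cells, although the stated limit of the study was 10%, and 2 of those 7 were among the 3 cells of library 1. Of 7 barcodes that occurred in more than 1 library, 1 belonged to an NF2 cell.

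The authors normalised the UMIs of each cell before clustering, so total UMIs were no direct input, and they were compared between the types. Whether depth still bore on how the types were drawn was not tested. The median NF2 cell held 37690 UMIs in library 1, 163399 in library 2, 123456 in library 3, 95480 in library 4 and 85221 in library 5. Library 1, with 3 cells, lay below the others. The NF2 median was above that of PEP3_Trpm8 cold neurons in 5 of 5 libraries, with a log2 ratio of 1.53 ± 0.85 (SD, n = 5; exact two-sided sign-flip permutation test, p = 0.0625, the smallest p that 5 libraries allow; adjusted p = 0.344 over 11 types). It was also higher in 5 of 5 libraries against PEP1_S100a11.Tagln2, with a log2 ratio of 0.88 ± 0.54 (SD, n = 5; same exact test, p = 0.0625, adjusted p = 0.344). Against NF_Calb1 the log2 ratio was 0.13 ± 0.82 and against NF_Pvalb 0.20 ± 0.82 (SD, n = 5), with NF2 higher in 4 of 5 libraries each and library 1 the exception. Without library 1 these ratios were 0.49 and 0.54, and without library 2 -0.0042 and -0.00059. Against NP_Mrgprd nociceptors it was -0.31 ± 0.92 (SD, n = 5), with NF2 higher in 2 of 5, and without library 1 it turned to 0.0798. No type could pass the threshold on adjusted p in this design, because the smallest p that 5 libraries allow lies above it. With medians the spread over libraries was wider than most of the ratios. Means in place of medians gave 0.35 ± 0.18 against NF_Calb1, 0.49 ± 0.34 against NF_Pvalb and 0.82 ± 0.23 against Th (SD). They gave 1.65 ± 0.29 against PEP3_Trpm8. The spread stayed wider than the ratio against NP_Mrgpra3, at 0.0173 ± 0.28, and NP_Mrgprd, at -0.0228 ± 0.40.

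**Figure D1:**
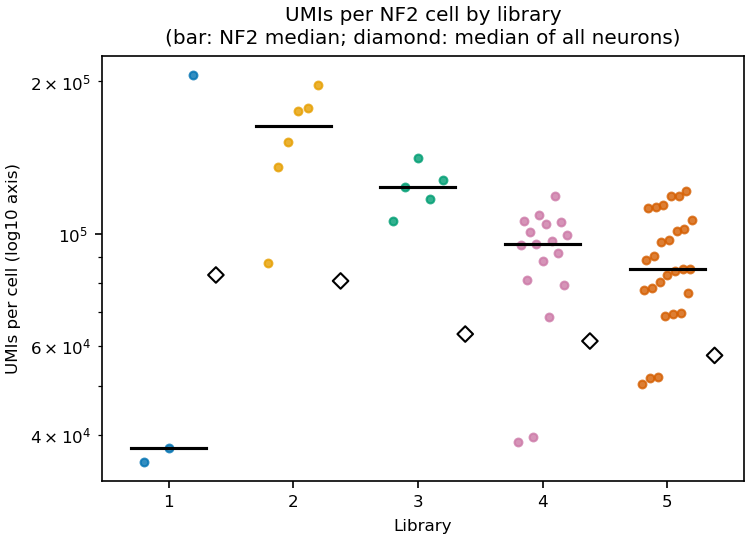
UMIs per cell of the 58 NF2 cells by library, on a log10 axis, 1 point for each cell, with a bar at the median; open diamonds mark the median of all neurons of that library. The medians run from 37690 in library 1 to 163399 in library 2, and the NF2 median lies below that of the neurons in library 1 alone.

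UMIs were summed over the cells of a type in each library, so that libraries and not cells are the replicates. Levels are given in CPM, the counts per 1e6 UMIs of the sum. Differences between types are log2 fold changes of edgeR's fit to 5 sums of each type, with their standard error (SE). A level written with ± is the mean of the 5 libraries and its SD. A gene is said to be called when its adjusted p was under 0.01, its difference at least 2-fold and a UMI of it was seen in at least 25% of the cells of the higher type. The authors drew the clusters from these same counts, so calls describe how far apart the types lie and are no test that the type exists. Of 11606 genes tested against the 11 other neuron types together, 16.8% were called, 891 (7.68%) higher in NF2 and 1062 (9.15%) lower. NP_Mrgprd gave 900 of the 2989 cells of that sum. With the other types weighted equally, 590 of the 891 higher calls and 934 of the 1062 lower calls were kept. Against NF_Calb1 11.5% of 8879 genes were called (4.36% higher, 7.12% lower, which is 387 and 632 genes, or 290 and 799 with library totals as the only scale, an alternative chosen after seeing the data), against NF_Pvalb 18.6% of 7928 (8.78% higher, 9.79% lower) and against Th 20.2% of 9120 (9.62% higher, 10.6% lower). Called genes whose 5 libraries did not overlap made up 15% of the genes tested against the other neurons, 9.82% against NF_Calb1, 16.1% against NF_Pvalb and 18% against Th. The NF2 profile lay nearest to that of NF_Calb1, with a mean Pearson correlation across 14053 genes of 0.921 within a library, then PEP2_Htr3a.Sema5a at 0.890, Th at 0.887 and NF_Pvalb at 0.878. NP_Nts was the farthest neuron type at 0.815, and genes are not independent replicates.

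Ntrk2 set the type apart from every other. It stood at 659, 676, 942, 773 and 727 CPM in libraries 1 to 5, and the lowest NF2 library was above every library of the 13 other types. Satellite glia, the cells that wrap the neuron bodies, came next at 579 ± 55.9 CPM (SD, n = 5). NF_Calb1 followed at 129.9 ± 19.2 CPM, overlapping with PEP1_Dcn at 81.01 ± 23.2, and the 9 remaining neuron types lay at 19.8 CPM or lower. The NF2 level was 5.41 ± 0.24 (SE) above the other neurons on the log2 scale and 2.68 ± 0.14 above NF_Calb1. All 58 cells had a Ntrk2 UMI, and all 58 still had one when each cell was thinned to 20000 UMIs. In NP_Mrgprd nociceptors the shares were 8.33% and, thinned, 2.71%, at a median of 105150 UMIs per cell against 96530.5 in NF2. Counts of this 3′ assay come as 1 row for each gene, so full-length TrkB, the kinase form, and truncated TrkB, the form glia are known for, cannot be told apart.

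Necab2 was less particular. It stood at 100.4, 162, 245, 285 and 229.6 CPM in libraries 1 to 5, lowest in library 1. PEP3_Trpm8 came next at 137 ± 37.2 CPM, and its libraries overlapped with those of NF2. Th neurons held 71.02 ± 18.5 CPM and NP_Nts 48.6 ± 19.8, while NF_Calb1 and NF_Pvalb were at 13.8 and 14.8. The difference was 3.63 ± 0.21 (SE) on the log2 scale against the other neurons and 1.62 ± 0.22 against Th. A UMI was seen in 58 of 58 NF2 cells, 96.6% of them after thinning, against 1.61% of satellite glia (3.08% thinned) at a median of 17729 UMIs. Every NF2 cell therefore held both genes of its name.

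Of the 6 A-delta touch markers on the list used here, all 6 were called higher against the other neurons, beside 7.68% of all genes. Their median log2 fold change was 4.04, beside -0.07 over all genes tested. The list includes Ntrk2 and Necab2, the genes of the type's name, so its count and median are partly set by the choice of the type. All its members were chosen with earlier results of these data known. The count and median are therefore a description and no test that the cells are A-delta touch neurons. Cacna1h stood at 125, 132, 153, 131 and 108 CPM in libraries 1 to 5. Its next type was Th at 33.5 ± 5.27 CPM, under the lowest NF2 library, and NF_Calb1 held 9.17 CPM. Colq, which encodes the collagen tail that anchors acetylcholinesterase, was low but concentrated in the type, at 7.17, 9.74, 16.2, 13.8 and 17.1 CPM against at most 1.74 CPM in the mean of any other. A Colq UMI was seen in 44 of 58 cells, 31.03% after thinning, against 0% of thinned NP_Mrgprd cells. Ldhb, the heart form of lactate dehydrogenase, was at 1258, 762, 786, 686 and 880.0 CPM and did not separate NF2 from satellite glia at 1131 ± 103, NF_Pvalb at 846 ± 159 or PEP3_Trpm8 at 728 ± 74.9. Piezo2 was at 523, 504, 627, 545 and 532 CPM, overlapping with Th at 709.9 ± 93.6 and above NF_Calb1 at 345 ± 35.7 in every library, though by 0.81 ± 0.11 on the log2 scale, which is under 2-fold.

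**Figure D2:**
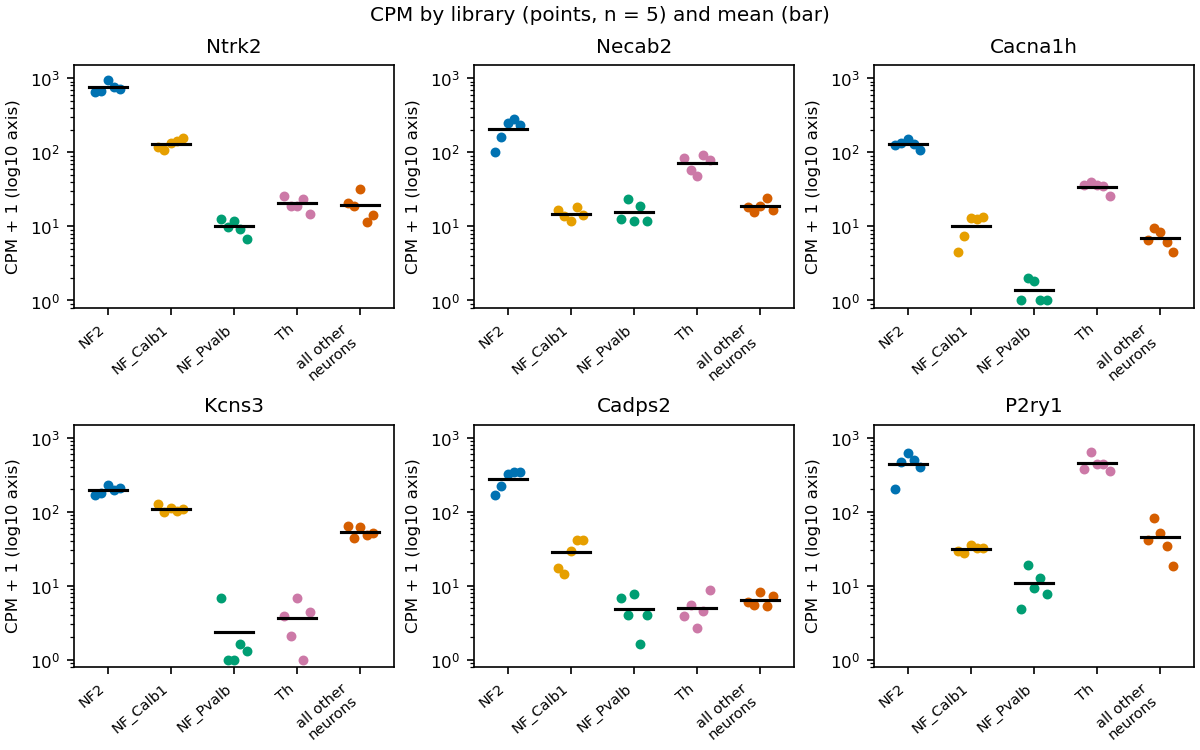
CPM by library (points, n = 5) and their mean (bar) of Ntrk2, Necab2, Cacna1h, Kcns3, Cadps2 and P2ry1 in NF2, NF_Calb1, NF_Pvalb, Th and all other neurons together, on a log10 axis of CPM + 1. NF2 holds the highest mean of these groups in 5 of the panels, and in the P2ry1 panel it overlaps with Th.

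Markers of other neuron types were low for some lists and not for others. The proprioceptor gene Pvalb was at 2.43 ± 3.13 CPM against 2773 ± 321 in NF_Pvalb, and Runx3, the transcription factor of that lineage, had 1 UMI in the 58 cells. Against the other neurons, where 9.15% of all genes were called lower, all 8 peptidergic nociceptor markers were called lower. Their summed level lay between 36.3 and 62.7 CPM in the NF2 libraries and between 4316 and 5740 CPM in the other neurons. Trpv1, the capsaicin receptor, had 2 UMIs and Trpa1, the irritant receptor, none, which makes Trpa1 at least 58.7-fold lower than in the other neurons, taking 3 counts over the 58 cells as the limit. Of the 8 non-peptidergic nociceptor markers, 4 were called lower against the other neurons and 4 were not called. Their sum lay between 90.3 and 424 CPM in the NF2 libraries, above NF_Calb1 at 74.6 ± 8.27 and NF_Pvalb at 30.5 ± 10.6 and overlapping with Th between 57.8 and 94.1. Most of it was Plxnc1, a semaphorin receptor, at 102 ± 14.3 CPM against 92.3 ± 13.3 in the other neurons, and in library 2 Nts, neurotensin, at 320.4 CPM. The 8 A-beta touch markers in the table summed to between 122 and 348 CPM in NF2, overlapping with NF_Pvalb between 214 and 267 and below NF_Calb1 between 807 and 1249. Of the 6 C-fibre touch markers tested against the other neurons, 1 was called higher, 1 lower and 4 were not called. Their sum lay between 247 and 655 CPM in NF2, overlapping with the other neurons between 94.3 and 320 and below Th between 1895 and 2469. Th itself was at 3.20 ± 2.86 CPM and Fam19a4 at 2.93 ± 3.03 CPM, against 747 and 561 in Th neurons. P2ry1, an ADP receptor in the same list, gave most of the NF2 sum. It stood at 201, 469, 612, 491 and 402 CPM in libraries 1 to 5 and 448 ± 117 in Th, which overlapped, and was 3.35 ± 0.33 (SE) above the other neurons on the log2 scale.

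Markers of the surrounding cells were counted as a whole list in each case. The 8 satellite glia markers summed to between 140 and 204 CPM in the NF2 libraries and between 232 and 384 in the other neurons, with 3 of the 8 at 0 UMIs in NF2. Much of the sum was Glul, glutamine synthetase, at 119.7 ± 19.96 CPM. The 8 Schwann cell markers summed to between 925 and 1215 CPM in NF2 and between 616 and 813 in the other neurons. That sum was nearly all Scn7a at 618 ± 91.1 and Pmp22 at 493 ± 70.1 CPM, while 2 of the 8, Prx and Mag, had no UMI. Endothelial, fibroblast, macrophage and blood lists were at or under 71.7 CPM in every NF2 library. The 5 pericyte and smooth muscle markers summed to between 7.17 and 148 CPM in NF2 and between 16.2 and 33.7 in the other neurons. Rgs5 gave most of the UMIs of that list in NF2 and is described below. None of the 9 general neuron markers was called in either direction against the other neurons, where 16.8% of all genes were. The part of surrounding cells in the levels of shared genes was not tested.

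The neurofilament chains Nefh and Nefm, of the genes that gave these types their name, were lower in NF2 than in NF_Calb1 and NF_Pvalb and higher than in Th. Nefh, the heavy chain, stood at 1627, 1932, 1712, 1899 and 1688 CPM in libraries 1 to 5, against 5351 ± 812 in NF_Calb1, 5533 ± 1039 in NF_Pvalb and 76.7 ± 13.1 in Th. Nefm, the middle chain, was at 1945 ± 372 CPM in NF2 and 5356 ± 715 in NF_Calb1. For both genes the NF2 libraries lay below every library of either neurofilament type and above every library of Th. Nefh was -1.45 ± 0.13 (SE) from NF_Calb1 and -1.56 ± 0.14 from NF_Pvalb on the log2 scale. The light chain Nefl was -1.16 ± 0.13 from NF_Calb1, and from NF_Pvalb -0.60 ± 0.19 with overlapping libraries. Prph, peripherin, the filament of small unmyelinated neurons, was at 2426 ± 255 CPM in NF2, 1856 in NF_Calb1 and 5598 in Th. S100b, a calcium-binding protein that marks neurons with large axons, stood at 2522 ± 296 CPM in NF2 and 3232 ± 298 in NF_Calb1, which overlapped, and 27.2 ± 13.9 in Th.

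Genes of the node of Ranvier and its flanking axon, which organise channels on myelinated fibres, were called in both directions. Of 16 tested against the other neurons 6 were called higher and 2 lower, and of 15 tested against Th 9 were higher and 2 lower. Against NF_Calb1, of 15 tested, none was called higher and 5 were lower. Over all genes the shares higher and lower were 7.68 and 9.15% against the other neurons. They were 9.62 and 10.6% against Th, and 4.36 and 7.12% against NF_Calb1. Cntnap2, the Caspr2 protein that holds potassium channels beside the node, was at 57.3, 55.2, 38.98, 46.2 and 46.01 CPM, against 250.9 ± 28.3 in NF_Calb1 and 548 ± 72.6 in NF_Pvalb. Its partner Cntn2 was not called against NF_Calb1, at 219 ± 17.6 CPM in NF2 and 129.7 ± 30.6 in NF_Calb1. Lgi1, a secreted protein of the axon initial segment, was called lower in all 4 comparisons, at 3.58, 5.41, 11.4, 7.25 and 6.27 CPM against 48.6 in NF_Calb1 and 21.96 in Th.

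Of the neurotrophin and GDNF family list, 17 genes, 13 were tested against the other neurons, with 4 called higher and 6 lower. Over all genes tested those shares were 7.68 and 9.15%. Among the receptors, Ntrk3 (TrkC), which binds NT-3, was at 96.8, 82.3, 58.5, 50.8 and 46.01 CPM, below NF_Calb1 at 341 ± 75.6 and NF_Pvalb at 173 ± 23.8. Ngfr, the low-affinity co-receptor p75, was at 496 ± 83.8 CPM, overlapping with NF_Calb1 at 539.7 ± 67.6. Sort1, sortilin, which binds proneurotrophins, was at 41.7 ± 7.86 CPM against 6.50 ± 3.64 in NF_Calb1 and 37.7 ± 7.70 in NF_Pvalb. Ret, the signalling receptor for GDNF ligands, was at 43.01, 60.6, 14.6, 41.5 and 40.99 CPM, -3.12 ± 0.24 (SE) from NF_Calb1 and -3.49 ± 0.20 from Th on the log2 scale, and overlapped with NF_Pvalb. The ligand Nrtn, neurturin, was called higher in all 4 comparisons. It stood at 25.1, 31.4, 22.7, 43.5 and 60.2 CPM in libraries 1 to 5, against 8.49 ± 4.09 in NF_Pvalb, 5.63 ± 2.96 in NF_Calb1 and 0.672 ± 0.29 in Th. Bdnf, the ligand of TrkB, was at 88.3 ± 18.1 CPM, close to NF_Calb1 at 95.5 ± 11.4 and above Th at 13.4 ± 3.71. Of the GDNF co-receptors, Gfra2, which prefers neurturin, was at 33.98 ± 6.80 CPM, called higher than in NF_Calb1 at 14.6 ± 7.49 and lower than in Th at 338 ± 23.9. Its difference of 1.19 ± 0.27 (SE) from NF_Calb1 on the log2 scale fell just under 2-fold, to 0.99, without library 1. Gfra4 was called lower in all 4 comparisons at 15.01 ± 6.54 CPM, though its -1.14 ± 0.22 (SE) from the other neurons became -0.94 without library 4, and Gfra3, the artemin co-receptor, had 3 UMIs. The ligand genes Gdnf, Artn and Ntf5 had none. Shc4, an adaptor of a family that couples to receptor tyrosine kinases, was outside the list and stood at 28.7, 19.5, 34.1, 36.3 and 26.8 CPM, against 7.54 ± 1.32 in NF_Calb1, and overlapped with satellite glia at 26.2 ± 7.39.

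Of 20 genes for mechanically gated channels and their partners, 16 were tested against the other neurons, 1 called higher (Piezo2) and 4 lower. All genes tested gave 7.68% higher and 9.15% lower. Acid-sensing channels were called in both directions. Asic1 was at 0, 0, 1.62, 0.659 and 0.837 CPM in libraries 1 to 5, against 189 ± 29.9 in NF_Pvalb and 48.2 ± 10.4 in NF_Calb1, and Asic3 was at 0.299 ± 0.414 CPM against 106 ± 28 in NF_Calb1. Asic2, in contrast, was at 50.2, 94.2, 92.6, 95.6 and 109 CPM, 2.23 ± 0.18 (SE) above NF_Pvalb on the log2 scale. Kcnk18, the leak channel TRESK, was called higher against NF_Calb1, NF_Pvalb and Th, at 22.5 ± 7.26 CPM in NF2 and 2.45, 0.229 and 1.03 in NF_Calb1, NF_Pvalb and Th.

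Among voltage-gated sodium channels and their partners, 15 of 17 were tested against the other neurons, with 5 called higher and 5 lower. The shares over all genes were 7.68 and 9.15%. Scn1a and Scn8a, the fast channels Nav1.1 and Nav1.6 of myelinated axons, were at 84.3 ± 26.2 and 173 ± 35.1 CPM. Scn8a was -1.21 ± 0.15 (SE) from NF_Calb1 and 1.94 ± 0.17 above Th on the log2 scale. Scn10a and Scn11a, the nociceptor channels Nav1.8 and Nav1.9, were at 1.25 ± 1.14 and 1.59 ± 1.74 CPM. Of the beta subunits, Scn4b was at 91.3 ± 17.5 CPM in NF2, 87.3 in NF_Calb1 and 11.99 in Th, and Scn2b had 1 UMI in the 58 cells against 35.2 CPM in Th.

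**Figure D3:**
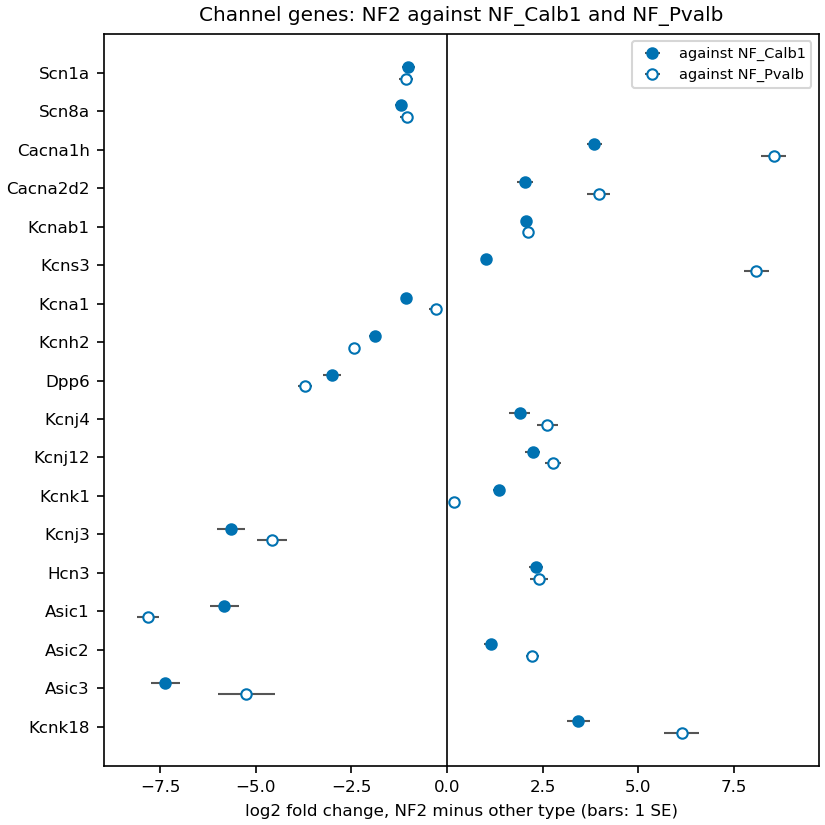
Log2 fold change of NF2 against NF_Calb1 (filled) and NF_Pvalb (open) for channel genes named in the text, from edgeR, with bars of 1 SE. Asic1, Asic3 and Kcnj3 had at most 4 UMIs in NF2. Points right of 0 are higher in NF2. Cacna1h, Kcns3, Kcnab1, Kcnj4 and Hcn3 lie to the right against both types, and Asic1, Dpp6, Kcnh2, Scn1a and Scn8a to the left against both.

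Of the 38 voltage-gated potassium channel genes in the table, 32 were tested against the other neurons, with 11 called higher and 7 lower, and against NF_Calb1 2 of 25 were higher and 6 lower. Those 2 were Kcnab1, a beta subunit of the Kv1 channels, and Kcns3, a silent subunit that joins Kv2 channels. All genes tested gave 7.68% higher and 9.15% lower against the other neurons, and 4.36 and 7.12% against NF_Calb1. Kcnab1 stood at 254, 202, 244, 237 and 243 CPM in libraries 1 to 5, against 61.4 ± 11.1 in NF_Calb1, 57.98 ± 15.1 in NF_Pvalb and 80.5 ± 3.65 in Th. Kcns3 stood at 168, 179.7, 231, 193 and 206 CPM, against 109 ± 11.1 in NF_Calb1, 1.34 ± 2.48 in NF_Pvalb and 2.67 ± 2.27 in Th. The difference of Kcns3 from NF_Calb1, 1.01 ± 0.12 (SE) on the log2 scale, was just past 2-fold. It fell under 2-fold with library totals as the only scale, at 0.86, with no filter on low counts, after thinning (0.80) and without library 2, 3, 4 or 5 (0.95 to 0.99). Both were called higher in all 4 comparisons, and neither overlapped with these types. Kcna1, a Kv1 channel itself, was called lower than in NF_Calb1, at 689 ± 65.4 against 1584 ± 296 CPM. Kcnh2, the ERG channel, was at 25.8 ± 4.33 CPM against 111 in NF_Calb1 and 156 in NF_Pvalb. Dpp6, the auxiliary subunit of the Kv4 channels, was called lower in all 4 comparisons, at 50.2, 19.5, 12.99, 21.1 and 25.1 CPM against 205, 324 and 153 in NF_Calb1, NF_Pvalb and Th.

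Of 25 leak, inward rectifier and calcium-activated potassium channels, 11 were tested against NF_Calb1, with 6 called higher and 1 lower beside 4.36 and 7.12% of all genes. Against the other neurons the balance was the opposite, with 3 higher and 6 lower of 19 tested, beside 7.68 and 9.15% of all genes. Kcnj4, the inward rectifier Kir2.3, was called higher in all 4 comparisons, at 46.6, 33.6, 32.5, 27.7 and 27.2 CPM against 9.69 ± 3.91 in NF_Calb1 and 9.25 ± 2.31 in Th. Kcnj12, the rectifier Kir2.2, was at 122, 202, 365, 319 and 302 CPM, lowest in library 1, and 236 ± 27.1 in Th, which overlapped. Kcnk1, the leak channel TWIK-1, was at 271 ± 30.5 CPM in NF2 and 250.1 ± 41.7 in NF_Pvalb, and 3.20 ± 0.13 (SE) above the other neurons on the log2 scale. Kcnj3, a G protein-gated rectifier, was at 0.648 ± 0.893 CPM against 42.03 ± 7.52 in NF_Calb1. Of the HCN pacemaker channels, Hcn3 was at 32.3, 31.4, 35.7, 32.3 and 34.3 CPM, 2.32 ± 0.18 (SE) above NF_Calb1 on the log2 scale.

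Of 19 voltage-gated calcium channel genes, 14 were tested against the other neurons, with 2 called higher and 2 lower. Over all genes the shares against the other neurons were 7.68 and 9.15%. Cacna1h and the alpha2delta subunit Cacna2d3 were the higher pair, though Cacna2d3 at 25.9 ± 4.97 CPM was not above NF_Calb1 at 49.6 ± 10.4. Its 1.07 ± 0.24 (SE) above the other neurons on the log2 scale fell under 2-fold without library 2, 4 or 5 (0.95 to 0.99), after thinning (0.82) and with the types weighted equally (0.80). The alpha2delta subunit Cacna2d2 was at 21.5, 35.7, 63.3, 48.8 and 46.4 CPM, 2.04 ± 0.21 (SE) above NF_Calb1 on the log2 scale. Cacng5, of the gamma subunit family, had 1 UMI in the 58 cells and 49.8 ± 10.99 CPM in NF_Pvalb. Calcium-binding proteins were called in both directions, 4 higher and 7 lower of 21 tested against the other neurons. Vsnl1, visinin-like protein 1, was at 222, 214, 307, 397 and 387 CPM, 3.29 ± 0.19 (SE) above them on the log2 scale, while Ncald, neurocalcin delta, was called lower in all 4 comparisons at 60.9, 35.7, 17.9, 15.2 and 24.3 CPM against 173 in NF_Calb1. Necab1, a paralogue of Necab2, was at 27.4 ± 9.76 CPM, under NF_Calb1 at 76.2 ± 13.5.

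Genes of transmitter release also differed by paralogue. Of 30 synaptic genes tested against the other neurons 6 were called higher and 7 lower, beside 7.68 and 9.15% of all genes. Cadps2, which primes dense-core vesicles, stood at 165, 219.7, 317, 339 and 343 CPM in libraries 1 to 5, highest in NF2 of all 14 types, against 27.8 ± 12.8 in NF_Calb1 and 3.82 ± 2.43 in NF_Pvalb. Its paralogue Cadps was at 153 ± 24.96 CPM, below NF_Calb1 at 372 ± 43.4. Syt1, the calcium sensor of release, was at 615 ± 91.01 CPM against 89.1 ± 19.4 in NF_Calb1 and 49.8 ± 20.5 in NF_Pvalb, whereas Syt2 was at 4.47 ± 4.13 against 30.5 ± 6.24 and 39.4 ± 10.00. The vesicle SNARE Vamp2 was at 583 ± 44.5 CPM and its paralogue Vamp1 at 127 ± 34.4, against 253 ± 14.6 and 519 ± 120.4 in NF_Calb1. Syt1 and Vamp2 were thus called higher, and Syt2 and Vamp1 lower, against both neurofilament types, and Syt1 and Vamp2 were not called against Th. Rab3b, a vesicle GTPase outside that list, was called higher in all 4 comparisons at 25.1, 81.2, 110.4, 111 and 101 CPM, lowest in library 1. Of the vesicular glutamate transporters, Slc17a6 (VGLUT2) was at 220.0 ± 15.8 and Slc17a7 (VGLUT1) at 164 ± 38.7 CPM, against 16.9 and 489 in NF_Pvalb and 189.6 and 0.465 in Th.

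Of 25 glutamate and GABA receptor genes tested against the other neurons, 9 were called higher and 3 lower. Against NF_Calb1 4 were higher and 7 lower of 21. Over all genes the shares were 7.68 and 9.15% against the other neurons and 4.36 and 7.12% against NF_Calb1. The GABA-A subunit Gabrb2 was called higher in all 4 comparisons. It stood at 57.3, 111, 109, 140.4 and 135 CPM, with library 1 the lowest and overlapping with NF_Calb1 at 62.6 ± 16.3, from which it differed by 1.04 ± 0.19 (SE) on the log2 scale. That call was lost with library as a block (0.99), with library totals as the only scale (0.90), after thinning (0.95) and without library 3 (0.97). The metabotropic receptor Grm4 was at 46.9 ± 8.19 CPM in NF2, 24.3 in NF_Calb1 and 0.0892 in Th. The kainate receptor subunit Grik1 was called lower in all 4 comparisons, at 7.17, 3.25, 3.25, 0.659 and 2.51 CPM against 256 ± 29.7 in Th and 15.1 ± 4.62 in NF_Calb1. The NMDA and AMPA subunits Grin1 and Gria2 were -1.57 ± 0.21 and -1.96 ± 0.25 (SE) from NF_Calb1 on the log2 scale.

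Sensory transcription factors were called in both directions, 4 higher and 9 lower of 28 tested against the other neurons. The shares over all genes were 7.68 and 9.15%. Pbx3, a homeobox partner protein, was the 1 called higher in all 4 comparisons, at 64.5, 75.8, 77.96, 50.1 and 61.1 CPM in libraries 1 to 5 against 27.4 ± 7.54 in NF_Pvalb and 24.3 ± 5.02 in NF_Calb1. Shox2, a homeobox factor of myelinated touch neurons, was at 63.4 ± 14.9 CPM, overlapping with NF_Calb1 at 84.9 ± 16.9, and 1.02 ± 0.522 in Th. Pou4f2 was at 46.9 ± 9.61 CPM, 2.01 ± 0.19 (SE) above NF_Calb1 on the log2 scale and overlapping with Th at 49.2 ± 4.16. Tlx3, a homeobox factor, was at 177 ± 40.7 CPM against 75.1 ± 5.97 in NF_Calb1. Runx1, the factor of small-diameter lineages, was at 10.05 ± 4.03 CPM against 220.2 ± 6.68 in Th, and it and Tshz2, at 3.21 ± 1.89 CPM, were called lower in all 4 comparisons. The call of Runx1 against NF_Calb1, at -1.41 ± 0.37 (SE) on the log2 scale, was lost without library 2, 4 or 5, at -0.88 to -1.53. Maf, which large touch neurons require, was at 15.1 ± 8.21 CPM against 54.5 ± 11.4 in NF_Calb1, and Meis2 at 5.04 ± 2.43 against 126 ± 25.7. Zeb2 had no UMI in the 58 cells.

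In all, 73 genes were called higher and 57 lower in each of the 4 comparisons, which share the NF2 sums, and the sum of the other neurons contains NF_Calb1, NF_Pvalb and Th. Against NF_Calb1 alone, 4.36% of the 8879 genes tested were called higher and 7.12% lower. With library totals as the only scale 64 of the 73 kept all 4 calls. By the smallest of the 4 differences, the leading genes included Cadps2, Tbx3os2, Rab3b, Cox7a1, Ntrk2, Adamts5, Sipa1l2, Lhfpl2, Nrtn, Sema5b and Shc4. Tbx3os2, an antisense transcript beside Tbx3, stood at 118, 139, 169, 172 and 148 CPM against 15.3 ± 8.95 in NF_Calb1, and the sources used here do not say whether reads were counted by strand. Cox7a1, a muscle form of a cytochrome c oxidase subunit, stood at 161, 72.5, 76.3, 77.1 and 67.8 CPM, high in library 1, 11.3 ± 4.46 in NF_Calb1 and 48.8 ± 11.8 in satellite glia, which lay between. Cox6a2, the muscle form of another subunit of that enzyme, was at 7.17, 10.8, 25.99, 31.6 and 17.1 CPM against 0.854 in NF_Calb1, and had no UMI in Th; it was not tested against NF_Pvalb. Lhfpl2, of a tetraspan family, stood at 35.8, 86.6, 158, 97.6 and 87 CPM and had no UMI in NF_Pvalb. Baiap2l1, which shapes actin at the membrane, was at 166 ± 24.9 CPM against 51.8 ± 7.46 in NF_Calb1 and 1.94 in NF_Pvalb. Sema5b, a semaphorin, was at 10.8, 9.74, 40.6, 23.7 and 19.2 CPM, and Aldh1l1, a folate enzyme better known from astrocytes, at 17.5 ± 9.56 CPM against 5.29 in NF_Calb1.

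Ordered by fold change against the other neurons, Bhmt2, an enzyme of methionine synthesis, came first at 3.58, 3.25, 11.4, 4.62 and 3.35 CPM in libraries 1 to 5, against 0.0509 in NF_Calb1. Sall4, a zinc finger factor of early development, stood at 7.17, 7.58, 4.87, 10.5 and 6.27 CPM, and Tekt4, a tektin of cilia, at 17.9, 6.49, 14.6, 12.5 and 11.3 CPM. All 3 were low in level, and the 5 NF2 libraries lay above those of the other neurons. At the other end were Prkcq, a protein kinase C, Agtr1a, the angiotensin receptor, and Cav1, caveolin. None of the 3 had a UMI in the 58 cells. That made Prkcq at least 105-fold, Agtr1a at least 58.7-fold and Cav1 at least 45.3-fold lower than in the other neurons. The neurofilament types shared the low levels of Agtr1a and Cav1. Agtr1a was seen in 91.6% of NP_Mrgprd cells (70.6% thinned), 1.67% of NF_Calb1 (1.12%) and 3.54% of NF_Pvalb (0%). Cav1 was seen in 99.0% of NP_Mrgpra3 cells (89.3% thinned), 86.3% of NP_Mrgprd (48.0%), 1.67% of NF_Calb1 (1.12%) and 0% of NF_Pvalb (0%). Against NF_Calb1 the genes with no UMI included Ptgfr, a prostaglandin receptor at 33.8 ± 11.4 CPM in NF_Calb1 and at least 64.6-fold lower in NF2, and Grm8, a metabotropic glutamate receptor at 23.8 ± 3.53 CPM and at least 45.4-fold lower. Against NF_Pvalb, Pln, phospholamban, had no UMI and was at least 170.1-fold lower, and Spp1, osteopontin, was at 1.98 ± 3.02 CPM against 846 ± 160.2.

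**Figure D4:**
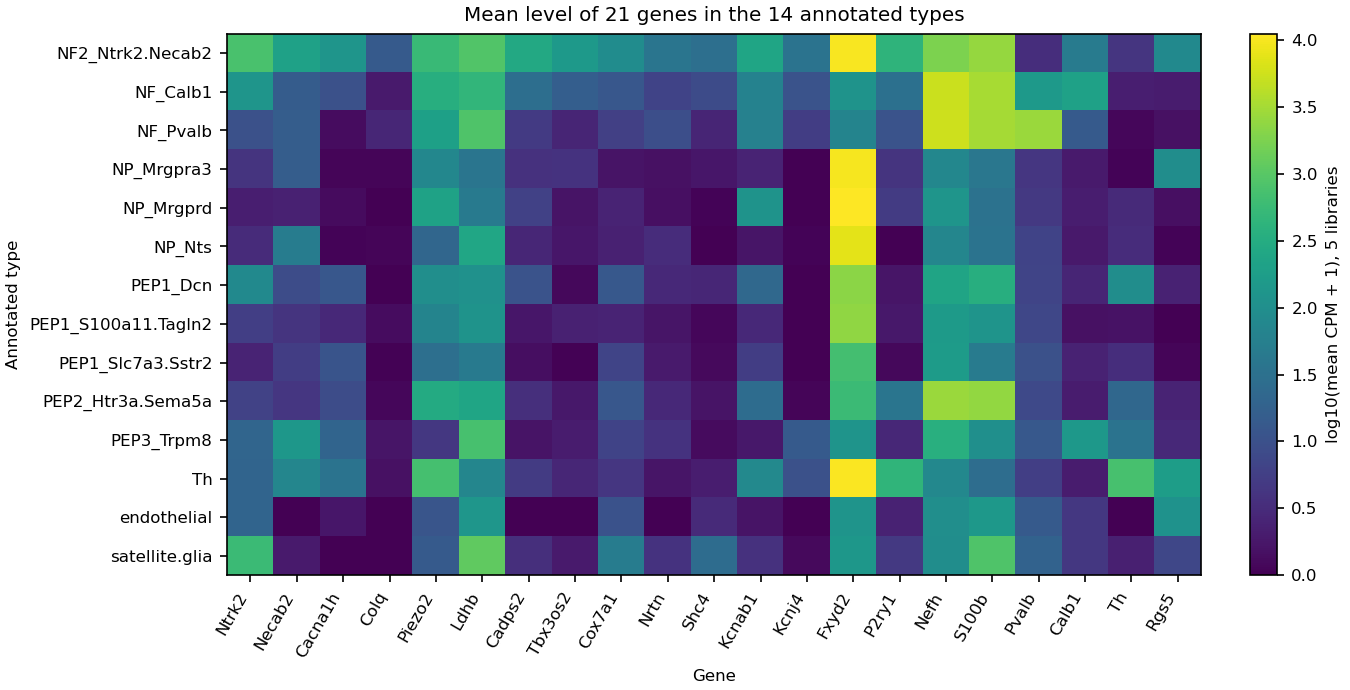
Mean CPM over 5 libraries, as log10(CPM + 1), of 21 genes named in the text in each of the 14 annotated types. NF2 is the first row; Ntrk2 is shared with satellite glia, P2ry1 and Piezo2 with Th, Fxyd2 with Th and the NP types, Ldhb with NF_Pvalb, and Nefh with NF_Calb1 and NF_Pvalb.

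Against NF_Calb1 alone, Pdlim1 and Fxyd2 had the largest fold changes among called genes whose libraries did not overlap. Fxyd2, the gamma subunit that tunes the sodium pump, stood at 5261, 7064, 12333, 12321 and 13156 CPM in libraries 1 to 5 and 117 ± 54.4 in NF_Calb1, 6.55 ± 0.33 (SE) on the log2 scale. Th neurons held 10355 ± 1119.7 CPM, which overlapped with NF2. Pdlim1, a cytoskeletal adaptor, was at 71.7, 119, 149, 179 and 169 CPM against 1.47 ± 0.704 in NF_Calb1 and 88.7 ± 28.05 in Th. Nrp1, a receptor for semaphorins, was at 324 ± 73.7 CPM against 0.689 ± 1.05 in NF_Pvalb. On the low side, Tmem229b had 2 UMIs in the 58 cells, against 195 ± 40.04 CPM in NF_Calb1 and 410.2 ± 53.9 in NF_Pvalb. The synaptic protein gene Cplx2 was at 1.76 ± 2.23 CPM against 285 ± 39.2 in NF_Calb1, -6.90 ± 0.27 (SE) on the log2 scale.

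Of the 10 most abundant genes called higher against the other neurons, 7 encode proteins of the respiratory chain or the ATP synthase; no list of such genes was tested as a whole. Cox4i1, a cytochrome c oxidase subunit, stood at 3548, 3384, 3583, 3842 and 4001 CPM in libraries 1 to 5 and 1743 ± 77.2 in the other neurons together, 1.10 ± 0.10 (SE) on the log2 scale. Cox6c, Uqcrh, Atp5g1, Cox5a, Cycs and Atp5j, of the same chain and the ATP synthase, were between 1.06 and 1.21 above the other neurons on that scale. Each of the 7 was close to 2-fold and lost its call, at 0.93 to 1.00, in at least 1 of 2 settings. These were cells thinned and the other types weighted equally, and not every gene lost its call in both. None of the 7 was called against NF_Pvalb, where the differences ran from -0.11 to 0.35, and only Cycs was called against NF_Calb1, at 1.05 ± 0.14 (SE), which became 0.97 without library 2 and 0.90 with library totals as the only scale. Atp1b1, a sodium pump subunit, was 1.11 ± 0.11 above the other neurons and -0.02 ± 0.11 from NF_Calb1. Lgals1, galectin-1, was called higher in all 4 comparisons at 1853 ± 214 CPM, against 815 ± 161 in NF_Calb1 and 767 ± 82.3 in NF_Pvalb.

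Over the 14 types, the patterns most like that of Ntrk2 included those of Shc4, with a Pearson correlation of log2(CPM + 1) means of 0.932, then Cox7a1 (0.878), Aldh1l1 (0.856) and Epb4.1l4b (0.854). Aldh1l1 is also expressed by satellite glia, as Ntrk2 is, at 12.2 ± 2.16 CPM. The patterns most like that of Necab2 were those of Adprhl1 (0.898), 4632415L05Rik (0.887), AA415398 (0.875), Krt25 (0.860) and Tmem72 (0.856). Of these, Tmem72 was at 82.4, 57.4, 84.5, 55.4 and 56.5 CPM in NF2, 54.97 ± 9.42 in Th and 24.2 ± 7.61 in PEP3_Trpm8.

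The 58 cells were not uniform. The genes of this paragraph and the next were chosen after their values were seen, and the cells were divided by a measured gene, so the values are a description with no test. Rgs5, a regulator of G protein signalling best known from pericytes, stood at 0, 77.9, 148, 80.4 and 106 CPM in libraries 1 to 5, and a Rgs5 UMI was found in 40 of the 58 cells, 0 of 3, 4 of 6, 4 of 5, 14 of 17 and 18 of 27. The 40 cells held from 1 to 30 Rgs5 UMIs with a median of 12, and 3 of them held 3 or fewer. Of the 4 other pericyte markers Myh11 and Tagln had no UMI, Acta2 had 1 and Pdgfrb 7, and Th neurons, at 178 ± 55.6 CPM, also held Rgs5. Hoxb8 and Hoxb9, genes that set position along the body axis, were seen more in the other cells. Cells were divided by Rgs5 before thinning, here and in the next paragraph, and only the other gene was thinned. After thinning to 20000 UMIs, Hoxb8 was seen in 12 of the 18 cells without Rgs5 (66.7%) and 2 of the 40 with it (5%), and Hoxb9 in 9 of 18 (50%) and 0 of 40. With Rgs5 thinned too, 36 cells held it, and Hoxb8 was seen in 1 of these 36 and 13 of the 22 others. Without thinning, each of the 18 cells without Rgs5 held Hoxb8 or Hoxb9, as did 12 of the 40 with it. In NP_Mrgprd cells a Hoxb8 UMI was seen in 0.789% after thinning.

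Other genes followed the same division. Of the 40 cells with Rgs5 before thinning, 26 held Lypd1 after it, 23 Krt25, 19 Mlc1 and 36 Klhdc8a. Of the 18 cells without Rgs5 these were 1, 1, 0 and 8. Serping1, a complement inhibitor, was in 12 of 40 of the cells with Rgs5 and 16 of 18 of those without, and Tnfrsf1a, a TNF receptor, in 4 of 40 and 12 of 18. Meis2 was in 0 of 40 and 3 of 18, and without thinning in 0 and 11. Gfra1, the GDNF co-receptor, was in 5 of 40 and 11 of 18, and without thinning in 15 and 15. In libraries 4 and 5 alone, Hoxb8 after thinning was in 6.25% of the cells with Rgs5 and 75% of those without. The median Ntrk2 level was 748 CPM in cells with Rgs5 and 705 in cells without. That of Necab2 was 236 CPM in cells with Rgs5 and 148 in cells without. For both genes the ranges of the cells overlapped. P2ry1 was at 503 and 220.3 CPM. The cells with Rgs5 had a median of 98152.5 UMIs and a mitochondrial share of 6.79%, and those without 85790 UMIs and 8.49%, so both moved a little with the division, and their part in it was not tested. Hoxb8 and Meis2 were also expressed in NF_Calb1, at 52.6 and 126 CPM, and Krt25 in PEP3_Trpm8 and Th, at 38.1 and 22.2 CPM.

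**Figure D5:**
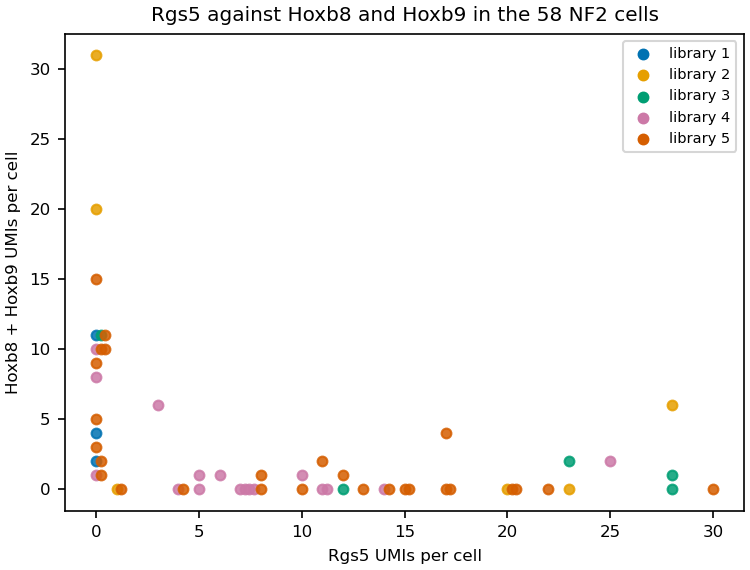
UMIs of Rgs5 against UMIs of Hoxb8 and Hoxb9 together in each of the 58 NF2 cells, coloured by library and not thinned, with points at equal values set slightly apart. The 18 cells at 0 Rgs5 UMIs all hold at least 1 Hoxb8 or Hoxb9 UMI, and 28 of the 40 cells with Rgs5 hold neither.

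Single cells also set some levels. Fxyd2 lay between 487 and 20602 CPM over the cells with a median of 13040.1, and 5 cells, 3 of the 6 of library 2 and 2 of library 5, lay at or under 1050 CPM while the next was at 3051. Calb1 stood at 165, 7.58, 6.50, 28.3 and 24.7 CPM in libraries 1 to 5, and 1 cell of library 1 held 46 of its UMIs. Nts, a neuropeptide of itch neurons, stood at 0, 320.4, 0, 0 and 0.418 CPM, and 1 cell of library 2 held 296 of 297 UMIs. The Nts level and the library 1 level of Calb1 describe those cells and not the type. Fxyd2 was seen in all 58 cells and Calb1 in 38 of 58.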

How the data were processed

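Lumbar DRG cells of 5 mice were profiled by 3′ droplet sequencing. The deposited values are raw UMI counts for each gene and cell, which the authors made with Cell Ranger 2.0.0 on the mm10 genome and UCSC gene models, and the deposited annotation comes from their clustering with Seurat 3.0.1. The authors limited droplet loading to keep doublets rare, and no doublet caller was run here. The 17267 rows with a gene name were kept; 4 rows without a mouse gene name held 143 UMIs and were left out. Counts were summed for each library and type and fitted with edgeR 4.0.16 (R 4.3.3; filterByExpr, TMM scaling, quasi-likelihood test, Benjamini-Hochberg over all genes tested). DESeq2 1.42.0 served as an alternative. TMM left the median log2 fold change of all genes between -0.07 and 0.00; plain CPM moved it to -0.134 against NF_Calb1. Sums of the same library come from the same animal, so libraries pair the types; the deviations of paired sums correlated at 0.013 to 0.258. On simulated counts, 88 to 91 of 100 genes changed 3-fold passed the limits on adjusted p and fold, and at most 2 unchanged genes did. The minimum share of cells was not applied there. Genes of very low expected count were not changed, and far fewer genes were changed than were called in the data. Sums of the same library were drawn independently. The simulation therefore does not give error rates for the calls reported here. Named genes were the listed genes, those with the largest and smallest fold changes whose libraries do not overlap, the 10 most abundant higher genes, the first 12 called higher in all 4 comparisons, and the 5 patterns most like Ntrk2 and Necab2. The members and lists were chosen with earlier results of these data known. Some genes that the rule would name are not reported here. Intervals cover counting error only.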

Additional observations from a re-analysis of the deposited data

Results flagged for a closer look

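Of 99 sets of 5 NF2 library values examined, 8 had 1 library far from the others by Dixon's criterion for 5 values, while chance flags about 1 in 20. Library 1 holds 3 NF2 cells, and 1 of them gave 205925 of its 279016 NF2 UMIs. There Asic2 was low at 50.2 CPM (92.6 to 109 in the others) and Nrp1 low at 197 CPM (326 to 376 in the others). In the same library Cox7a1 was high at 161 CPM (67.8 to 77.1 in the others), Glul at 154 CPM (105 to 119) and Calb1 at 165 CPM (6.50 to 28.3). The median mitochondrial share of its NF2 cells was 12.1%, against 6.41 to 7.76% in the others. Nts stood at 320 CPM in library 2 and at most 0.418 in the others. Bhmt2 stood at 11.4 CPM in library 3 and 3.25 to 4.62 in the others. Outside the main measurement, the 4 rows without a mouse gene name held 143 UMIs over all cells, with no control sample to compare.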

How the results depend on the processing

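Thinning each cell to 20000 UMIs lowered every count of calls by over 1.5 times: against the other neurons to 524 higher and 660 lower, against NF_Calb1 to 198 and 410, against NF_Pvalb to 336 and 340, and against Th to 455 and 517. Under the other settings (DESeq2, no filter on low counts, a limit on mitochondrial or satellite glia share, a threshold of 0.05 on adjusted p, no minimum on the share of cells, equal weight of the other types) each count stayed within 1.5 times. Equal weight changed which genes were called more than that label shows. It gave 632 higher and 1076 lower against the other neurons, and kept 590 of the 891 higher and 934 of the 1062 lower calls. With library as a replicate block, which pairs sums of the same animal, the counts were 938 and 1068, 390 and 619, 695 and 773, and 886 and 964, and the block changed 1 call of a printed fold change, named below. Leaving out each library in turn gave 803 to 969 higher and 984 to 1135 lower against the other neurons, 359 to 422 and 545 to 690 against NF_Calb1, 636 to 786 and 710 to 867 against NF_Pvalb, and 745 to 986 and 831 to 1008 against Th. Library totals without TMM scaling, an alternative chosen after seeing the data, gave 850 and 1110, 290 and 799, 630 and 843, and 838 and 1011. Of 600 values of 42 fold changes under these settings, 566 kept their direction and side of the threshold, and 28 of the 42 did so in every setting that gave a value. The 34 others kept their direction and lost the call: 9 after thinning, 6 with types weighted equally, 3 with library totals alone, 1 with no filter, 1 with the block (Gabrb2 against NF_Calb1, 0.99) and 14 when a library was left out. They belong to Kcns3, Gabrb2, Gfra2, Runx1 and Cycs against NF_Calb1 and to Cacna2d3, Gfra4 and the 7 respiratory genes against the other neurons, and their values stand beside those genes. Nrtn and Kcnk18 had too few UMIs after thinning to be fitted. The cause was not tested.

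The log2 ratio of UMIs per cell turned to 0.0173 with means in place of medians against NP_Mrgpra3. With genes per cell it turned to -0.0152 against NF_Calb1, 0.0047 against NP_Mrgpra3 and 0.0087 against NP_Mrgprd. Leaving out 1 library gave -0.0042 (without library 2) to 0.49 (without library 1) against NF_Calb1, -0.00059 to 0.54 against NF_Pvalb, -0.36 to 0.18 against NP_Mrgpra3 and -0.49 to 0.0798 against NP_Mrgprd. Library 1, with 3 cells, set much of the spread: without it the ratio was 1.88 against PEP3_Trpm8 and 0.99 against Th. The share of cells ran from 1.49 to 1.76% when a library was left out. With 3 to 27 cells in a library, genes of a few UMIs were at the limit of this depth.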
